A study of Homo sapiens with 4 samples.

Results

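Pancreatic ductal carcinomas are sorted by their transcripts into a basal-like and a classical subtype, and 10 genes that mark these subtypes were measured in MIA PaCa-2 cells with and without overexpressed ING3. Of these, LEMD1, S100A2, FAM83A, DHRS9 and CTSV mark basal-like tumours, and CEACAM5, ANXA10, CTSE, LYZ and SPDEF mark classical tumours. The genes were taken by symbol, as the probe sets that the annotation assigns to 1 of these symbols and no other, and each was represented by its brightest probe set. All 10 were found among 19775 named genes.

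MIA PaCa-2 is an established human pancreatic carcinoma line. The ING3 cells carried a lentivirus with FLAG-tagged full-length ING3 in a vector named for a CMV/TO promoter, and the control cells carried a GFP lentivirus; both were selected as stable cells and grown alike in medium with fetal bovine and horse serum. The labels speak of selected clones without saying how many. Each group had 2 one-colour Affymetrix arrays (a and b), called technical duplicates by the series' design text, so a p-value here sets a difference against the spread between duplicate arrays of 1 cell population per group, not between independent cultures.

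Basal-like pancreatic tumours express squamous and keratinocyte-type genes, are often poorly differentiated and have the poorer outcome. Classical tumours keep genes of gut and gastric epithelium, among them mucins, trefoil factors and the endodermal transcription factors that control them. The ING3 protein reads methylated histone H3 and belongs to NuA4/TIP60, a complex that acetylates histones.

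Values are linear MAS5 signals as deposited, and a log2 difference is the mean log2(signal + 1) of the ING3 arrays minus that of the control arrays, with its moderated standard error (SE) from limma. A gene was called at a limma adjusted p under 0.05 (Benjamini-Hochberg over 12190 tested genes, two-sided); intervals are 95% and not adjusted for the number of genes. The test took genes with a mean log2(signal + 1) at or above the probe set median, which is a signal of 64.6, and these are called tested genes. The arrays had been scaled alike, with a trimmed mean signal of 500.1 on each. On the brightest of its 4 probe sets ING3 itself had signals of 521 and 541 in ING3 cells, against 338 and 373 in control cells, a log2 difference of 0.58 that was not called (limma adjusted p = 0.071), and the other 3 probe sets had differences of -0.19, 0.018 and 0.50. Where these probe sets lie relative to the ING3 insert is not given in the sources used here, so it is unknown whether they read the introduced ING3. ACTB control probe sets, a sign of RNA quality, had 3'/5' signal ratios of 2.06 and 2.03 on the ING3 arrays and 2.58 and 1.80 on the control arrays a and b. By ACTB the control duplicates lay farther apart. The same ratios of GAPDH control probe sets were close on all 4 arrays, at 0.903 and 0.923 on the ING3 arrays and 0.934 and 0.905 on the control arrays.

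The label of an epithelial carcinoma line was set against its markers. The keratin genes KRT8 and KRT18 had signals of at least 9740 on every array. EPCAM and CDH1, which encode epithelial adhesion proteins, were under the limit of tested genes, at 26.8 and 15.2 for EPCAM in ING3 cells against 37.9 and 26.0 in control cells, and between 1.92 and 19.7 for CDH1. VIM, the mesenchymal filament vimentin, had signals of 24294 and 26668 in ING3 cells and 27676 and 25627 in control cells.

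Sequence upstream of the start site is shown for LEMD1, the subtype gene that was called, and for S100A2, ANXA10 and CTSV, the brightest of the others. The sequences are from RefSeq (GRCh38.p14), 5' to 3' on the gene's strand, 250 bases before to 50 after the start, and where RefSeq lists several starts the most upstream is given. The windows lie at chr1:205422007-205422306 (minus strand) for LEMD1, chr1:153565795-153566094 (minus) for S100A2, chr4:168092287-168092586 (plus) for ANXA10 and chr9:97039093-97039392 (minus) for CTSV. Capitals mark matches, on either strand, to letters of known motifs: TGANTCA for AP-1 factors, TATAAA for the TATA box, CCAAT for the CCAAT box, GGGCGG for the GC box, GATAA for GATA factors, TGTTTNC for forkhead factors and GGAATG for TEAD factors. No marked matches overlap.
LEMD1: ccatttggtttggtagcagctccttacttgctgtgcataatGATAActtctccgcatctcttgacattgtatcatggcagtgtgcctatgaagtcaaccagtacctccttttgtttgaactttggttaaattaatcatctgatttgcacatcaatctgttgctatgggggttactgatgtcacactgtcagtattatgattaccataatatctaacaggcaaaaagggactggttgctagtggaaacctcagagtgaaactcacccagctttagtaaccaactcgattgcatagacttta
S100A2: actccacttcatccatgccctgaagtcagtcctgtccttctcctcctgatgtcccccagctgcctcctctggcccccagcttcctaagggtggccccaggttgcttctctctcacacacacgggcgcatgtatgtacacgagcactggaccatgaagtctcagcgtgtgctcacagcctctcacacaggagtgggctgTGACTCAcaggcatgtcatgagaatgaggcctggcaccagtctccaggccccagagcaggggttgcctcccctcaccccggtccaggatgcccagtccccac
ANXA10: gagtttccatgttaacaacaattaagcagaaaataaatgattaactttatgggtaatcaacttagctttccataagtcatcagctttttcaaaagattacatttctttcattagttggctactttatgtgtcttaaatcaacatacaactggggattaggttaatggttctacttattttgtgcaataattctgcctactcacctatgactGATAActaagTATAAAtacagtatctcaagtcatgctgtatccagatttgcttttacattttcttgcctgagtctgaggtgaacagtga
CTSV: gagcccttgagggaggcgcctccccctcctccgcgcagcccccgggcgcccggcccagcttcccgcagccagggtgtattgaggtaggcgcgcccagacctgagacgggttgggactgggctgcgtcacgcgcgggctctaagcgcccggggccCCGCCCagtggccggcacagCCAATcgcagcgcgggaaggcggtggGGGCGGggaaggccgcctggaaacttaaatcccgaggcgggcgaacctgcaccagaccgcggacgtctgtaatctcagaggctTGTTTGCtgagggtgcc

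The LEMD1 window was 40.3% G and C and held 1 GATAA match and 0 matches to the other letters. ANXA10, with 32.7% G and C and 0 CpG, held TATAAA 29 bases before the start and GATAA 39 bases before it. S100A2 held an AP-1 match 52 bases before the start, on a background of 61% G and C. CTSV had 71.3% G and C, 30 CpG, 2 GC boxes, 1 CCAAT and 1 forkhead match. The median over 35116 RefSeq windows of the same length was 58.7% G and C with 14 CpG. Of these windows, 7.71% held the AP-1 letters, 11.5% TATAAA, 34.6% CCAAT, 45% the GC box, 22.7% GATAA, 18% the forkhead letters and 14% the TEAD letters. These are matches of letters and no binding was measured.

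In the ING3 cells LEMD1 rose 1.95-fold, and it was the 1 of the 10 subtype genes that was called; 0 were called lower. Over all tested genes 1.5% were called, 1.03% higher and 0.476% lower. At an unadjusted limma p under 0.05, S100A2, CEACAM5 and ANXA10 also had higher signals, and none of the 10 had lower ones. Over all tested genes 9.54% had such a p with a higher and 8.19% with a lower signal. CEACAM5 and CTSE were past the limit of tested genes only through their ING3 arrays, so the counts and medians over the subtype genes describe these values and support no direction. Mean signals of 7 of the 10 were above those of the control cells and 3 below, and the groups of arrays did not overlap for 6 of them, 4 above and 2 below. Over all tested genes the groups did not overlap for 49.2%, with 24.3% above and 24.9% below. In whole-culture RNA, fewer cells with a transcript and less of it per cell cannot be told apart.

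**Figure D1:**
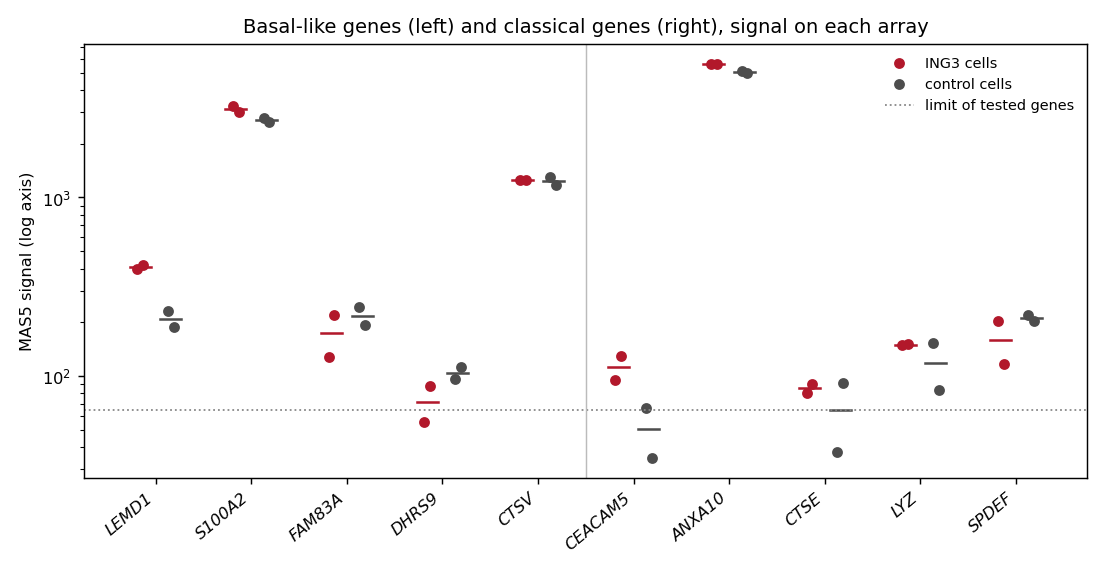
MAS5 signal (log axis) of the brightest probe set of each subtype gene, with the ING3 arrays left of the control arrays; points are arrays, bars are group means and the dotted line is the signal of 64.6 above which genes were tested. Both ING3 arrays of LEMD1 (398 and 418) lie above both control arrays (230 and 189), while S100A2, CTSV and ANXA10 are bright with duplicates close together.

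LEMD1 encodes a protein with a LEM domain, the fold by which nuclear envelope proteins bind the chromatin protein BAF, and it is classed as a cancer-testis antigen, silent in most adult tissues. Its probe set, the 1 that names it, had signals of 398 and 418 in ING3 cells, against 230 and 189 in control cells. Both ING3 arrays were above both control arrays.
 The means were 408 ± 14.5 in ING3 cells and 210 ± 28.8 in control cells (SD, n = 2 arrays each). The log2 difference was 0.96 (SE 0.17, interval 0.58 to 1.35, limma adjusted p = 0.031), against gaps of 0.072 between the ING3 arrays and 0.28 between the control arrays.

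The size of the LEMD1 difference was steadier than its call. It lay between 0.82 and 1.10 (log2) with any 1 array left out, and its unadjusted limma p was at most 0.0034 under 12 alternatives. The adjusted p was over the threshold under 7 of them: 0.062 and 0.097 without ING3 array a or b, 0.19 and 0.23 without control array a or b, 0.086 with no filter on dim genes, 0.055 with every probe set tested and 0.24 with a variance model without an intensity trend. LEMD1 ranked 112th of the tested genes by p and 43rd by its difference.

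The tested genes whose values over the 4 arrays ran closest to LEMD1, by the root mean square distance of log2 values centred on each gene's mean, were ANGPTL4 (distance 0.033), IGFBP2 (0.076) and CCN2 (0.084). ANGPTL4, a secreted inhibitor of lipoprotein lipase, had signals of 1063 and 1181 in ING3 cells against 618 and 526 in control cells. IGFBP2, a binding protein of insulin-like growth factors, had 244 and 245 in ING3 cells against 155 and 121 in control cells, and CCN2, a matricellular protein, had 244 and 244 against 123 and 117. All 3 shared the 4 arrays with LEMD1, and a distance over 4 values is a description of these arrays. They were picked for this closeness, so a higher signal in ING3 cells was fixed by the choice and their tests are no separate support. By the limma test ANGPTL4 was called (adjusted p = 0.0077; 0.099 and 0.13 without control array a or b), and IGFBP2 and CCN2 were not (adjusted p = 0.10 and 0.054).

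The LEM domain is shared with emerin (EMD), TMPO, LEMD2, LEMD3, ANKLE1 and ANKLE2, proteins of the nuclear envelope and its surroundings. Of these, 5 were tested, 0 were called and 0 had an unadjusted limma p under 0.05. Their log2 differences lay between -0.0090 and 0.010, with an SE from 0.060 for TMPO to 0.22 for LEMD2. The interval of LEMD2 ran from -0.49 to 0.50, so a small range of differences does not show that these genes were unchanged. TMPO had signals of 4082 and 4072 in ING3 cells and 4059 and 4123 in control cells, and EMD and LEMD3 had log2 differences of -0.0021 and -0.0090. The groups overlapped for each of the 5.

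S100A2 encodes a calcium-binding EF-hand protein of basal and squamous epithelium. Its signals were 3243 and 3028 in ING3 cells, against 2776 and 2636 in control cells. The groups did not overlap. The log2 difference was small, 0.21 (SE 0.070, interval 0.055 to 0.37), a fold of 1.16, and it was not called (limma adjusted p = 0.16). It kept its direction with any 1 array left out, between 0.16 and 0.26.

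Of 16 other S100 genes 11 were tested and 0 called, with 1 at an unadjusted limma p under 0.05, and their median log2 difference was 0.037 against -0.0074 over all tested genes. S100A10, the partner of annexin A2, had signals of 15895 and 17067 in ING3 cells against 13799 and 14041 in control cells, which is 0.24 higher on the log2 scale (SE 0.057, limma adjusted p = 0.076). S100A4 and S100A6, which are abundant in motile and proliferating cells, had differences of 0.028 (SE 0.052) and 0.011 (SE 0.056). Their groups overlapped.

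CTSV, a lysosomal cysteine protease closely related to cathepsin L, had signals of 1246 and 1260 in ING3 cells, against 1305 and 1181 in control cells. The ING3 values lay between the control values. The log2 difference was 0.013 (SE 0.088), with an interval of -0.18 to 0.21, or 0.88-fold to 1.16-fold, and it was not called (limma adjusted p = 0.96). Without control array b it was -0.059.

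FAM83A belongs to a family of signalling scaffolds and has been linked to EGFR signalling in carcinomas. Its brightest probe set had signals of 128 and 220 in ING3 cells, against 242 and 192 in control cells. ING3 array a was low and ING3 array b lay inside the range of the controls, so the groups overlapped. The log2 difference of -0.36 (SE 0.28, adjusted p = 0.55) turned to 0.031 without ING3 array a. The other probe set of FAM83A past the filter had 64.0 and 86.2 in ING3 cells against 72.2 and 129 in control cells, a difference of -0.38 with overlapping groups. Of the 7 other FAM83 genes 3 were tested and 0 were called, with 0 at an unadjusted limma p under 0.05. FAM83D, a spindle protein, had a difference of 0.054 (SE 0.068), and FAM83G and FAM83H, members of the same scaffold family, had 0.11 (SE 0.15) and -0.11 (SE 0.077).

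DHRS9 encodes a short-chain dehydrogenase that oxidises retinol and steroids. It had signals of 54.9 and 87.8 in ING3 cells, against 95.6 and 113 in control cells. Both ING3 arrays were below both control arrays, but the ING3 duplicates lay 0.67 apart on the log2 scale, more than the group difference of -0.57 (SE 0.36, interval -1.39 to 0.24, limma adjusted p = 0.45). Without ING3 array a the difference was -0.24. Its other 2 probe sets, both of the cross-hybridising _x_at kind and under the limit of tested genes, had differences of -1.23 and -0.95.

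Among 15 other genes of retinol and retinal oxidation, 7 were tested, of which 1 rose, 1 fell and 5 were not called. The called shares over all tested genes were 1.03% higher and 0.476% lower. ALDH1A1, a retinaldehyde dehydrogenase, rose to 10183 and 10779 in ING3 cells, against 7991 and 8766 in control cells (log2 difference 0.32, SE 0.065, limma adjusted p = 0.047). ADH4, a liver alcohol dehydrogenase that also oxidises retinol, fell to 101 and 69.3 in ING3 cells, against 229 and 209 in control cells (log2 difference -1.38, SE 0.28, limma adjusted p = 0.047). These signals are from the brightest of its 4 probe sets, an _x_at one, and the others are not given here. The retinol dehydrogenase RDH10 had 206 and 184 in ING3 cells against 283 and 248 in control cells and was not called (adjusted p = 0.26). RDH13 had 909 and 753 in ING3 cells against 629 and 724 in control cells and was not called (adjusted p = 0.27). At an unadjusted limma p under 0.05 the list had 2 higher and 2 lower genes, against 9.54% and 8.19% of all tested genes. The list was chosen with earlier results of these data known, so its counts are no independent support. As for LEMD1, the calls of ALDH1A1 and ADH4 ended with a variance model without an intensity trend. With that model limma called 0 genes (1686 at an unadjusted p under 0.05). Of the 12 alternatives ALDH1A1 was called under 4 and ADH4 under 4, with adjusted p of 0.36 and 0.28 without control array a, and 0.23 and 0.27 without control array b.

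ANXA10, an annexin of gastric epithelium, had the brightest probe set of the classical genes. Its signals were 5601 and 5619 in ING3 cells, against 5123 and 4977 in control cells. The groups did not overlap and the duplicates were close, with log2 gaps of 0.0048 between the ING3 arrays and 0.042 between the control arrays. The log2 difference was 0.15 (SE 0.058, interval 0.021 to 0.28), a fold of 1.11, and it was not called (limma adjusted p = 0.22). It lay between 0.13 and 0.17 with any 1 array left out, and was 0.10 after quantile normalization.

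Of the other 11 annexins 8 were tested and 0 called, with 1 higher and 2 lower at an unadjusted limma p under 0.05. The shares with such a p over all tested genes were 9.54% higher and 8.19% lower. ANXA9, the higher one, had signals of 255 and 206 in ING3 cells against 154 and 126 in control cells (log2 difference 0.72, SE 0.23, adjusted p = 0.15). The lower ones, ANXA4 and ANXA6, had log2 differences of -0.20 (SE 0.082, limma adjusted p = 0.25) and -0.22 (SE 0.095, adjusted p = 0.27). ANXA1 and ANXA2, which organise membranes and the actin beneath them, had differences of -0.0033 and -0.022, with overlapping groups, and ANXA7 had one of 0.11 (SE 0.060). The median of the 8 was -0.013.

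CEACAM5 encodes carcinoembryonic antigen, an adhesion glycoprotein anchored in the membrane of gut and carcinoma cells. Its brighter probe set had signals of 94.4 and 130 in ING3 cells, against 66.1 and 34.7 in control cells. Both ING3 arrays were above both control arrays, by a log2 difference of 1.19 that was the 20th highest of the tested genes, with an SE of 0.43 and an interval of 0.23 to 2.15. It was not called (limma adjusted p = 0.19), and the control duplicates lay 0.91 apart. The difference was 0.73 without control array b and 1.65 without control array a. The mean of the control arrays, 50.4, was under the limit of tested genes, so CEACAM5 was tested because of its ING3 values. Its other probe set had 27.1 and 37.8 in ING3 cells and 37.8 and 28.4 in control cells, with a difference of -0.034.

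The related CEACAM6, which marks classical tumours too, was under the limit of tested genes, at 55.1 and 50.5 in ING3 cells against 99.4 and 58.5 in control cells. Of 7 further CEACAM genes 3 were tested and 0 called, with 1 lower at an unadjusted limma p under 0.05. CEACAM1, an adhesion receptor of epithelia and leukocytes, had a log2 difference of 0.17 (SE 0.13), CEACAM3 one of -0.22 (SE 0.36) and CEACAM19 one of -0.96 (SE 0.29, adjusted p = 0.13).

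CTSE is an intracellular aspartic protease of gastric epithelium. Its signals were 80.2 and 90.4 in ING3 cells, against 37.5 and 91.8 in control cells. Control array a was low and control array b above both ING3 arrays, so the log2 difference of 0.53 (SE 0.47, limma adjusted p = 0.61) was 1.16 without control array b and -0.11 without control array a. The control duplicates lay 1.27 apart, more than the group difference. The mean log2(signal + 1) of CTSE was 6.43 on the ING3 arrays and 5.90 on the control arrays, which is under the limit of 6.04, so CTSE too was tested because of its ING3 values.

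Among the other cathepsins and their inhibitors 14 of 17 were tested and 0 called, with 1 at an unadjusted limma p under 0.05, and the median log2 difference was 0.032. CTSD, the lysosomal aspartic protease of most cells, had 1261 and 1055 in ING3 cells against 963 and 903 in control cells (log2 difference of 0.31 with SE 0.11, adjusted p = 0.19). CTSL, the closest relative of CTSV, had a difference of -0.068 (SE 0.072). Among lysosomal CTSB and CTSC and the inhibitor CSTB, the brightest of the list, differences were 0.048, 0.055 and -0.057. PGC, the gastric pepsinogen, ran from 21.4 on control array b to 234 on control array a.

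LYZ encodes lysozyme, a secreted antibacterial enzyme of gastric glands, Paneth cells and macrophages. Its signals were 150 and 150 in ING3 cells, against 153 and 83.0 in control cells. The ING3 arrays and control array a were close, and control array b was low. The log2 difference of 0.41 (SE 0.32, interval -0.32 to 1.13, limma adjusted p = 0.56) was 0.84 without control array a and -0.033 without control array b. The dimmer LYZ probe set had 23.6 and 19.1 in ING3 cells against 77.9 and 9.34 in control cells. Macrophage and leukocyte markers, checked because such cells are rich in LYZ, were all 6 under the limit of tested genes, and their summed signal was 171 and 185 in ING3 cells and 162 and 82.4 in control cells; none was listed at 0, and their part in the LYZ values was not tested.

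SPDEF is an ETS-family transcription factor of goblet and other secretory cells. Its brightest probe set had signals of 202 and 117 in ING3 cells, against 219 and 203 in control cells. Both ING3 arrays were below both control arrays, array a only narrowly. The log2 difference was -0.45 (SE 0.28, interval -1.07 to 0.17, limma adjusted p = 0.43), and it was -0.063 without ING3 array b. The second probe set past the filter went the other way, with 159 and 117 in ING3 cells against 116 and 65.7 in control cells and a difference of 0.64. All 5 SPDEF probe sets were of the _x_at kind, and the other 3 had differences of -0.96, 0.77 and -0.37, and the 5 differences had no common direction.

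**Figure D2:**
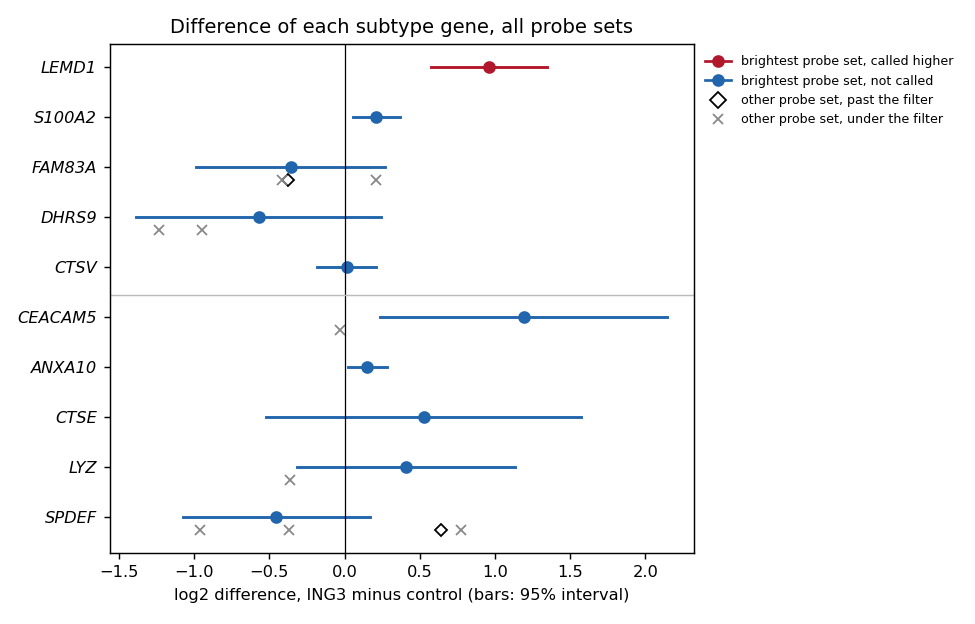
Log2 difference (ING3 minus control) of each subtype gene, with filled points for the brightest probe set, bars for its 95% interval, diamonds for other probe sets past the filter and crosses for those under it. The interval of LEMD1 (0.58 to 1.35) lies right of 0; those of S100A2, CEACAM5 and ANXA10 do too but were not called, and the probe sets of SPDEF lie on both sides.

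Agreement between probe sets could be checked for the 5 genes with several of them. Of their 11 further probe sets, 6 went in the same direction as the brightest and 5 in the opposite one. Only 2 of the 11, of FAM83A and SPDEF, were past the filter. LEMD1, S100A2, CTSV, ANXA10 and CTSE had a single probe set each and no such check.

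The spread between duplicates depended on brightness, and the subtype genes were unevenly placed. FAM83A, DHRS9, CEACAM5, CTSE, LYZ and SPDEF, 6 of the 10, fell in the dimmest when the tested genes were split by mean signal into 4 classes of equal size, with signals between 64.6 and 244. In that class the median SE was 0.30 and 0.0656% of genes were called (2 of 3048). LEMD1 lay in the second class, where the median SE was 0.14 and 1.18% were called. CTSV lay in the third, with a median SE of 0.091, and S100A2 and ANXA10 in the brightest, with a median SE of 0.066 and 3.02% called. The intervals of the 6 dim genes were wide, and that of CTSE ran from 0.70-fold to 2.98-fold.

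**Figure D3:**
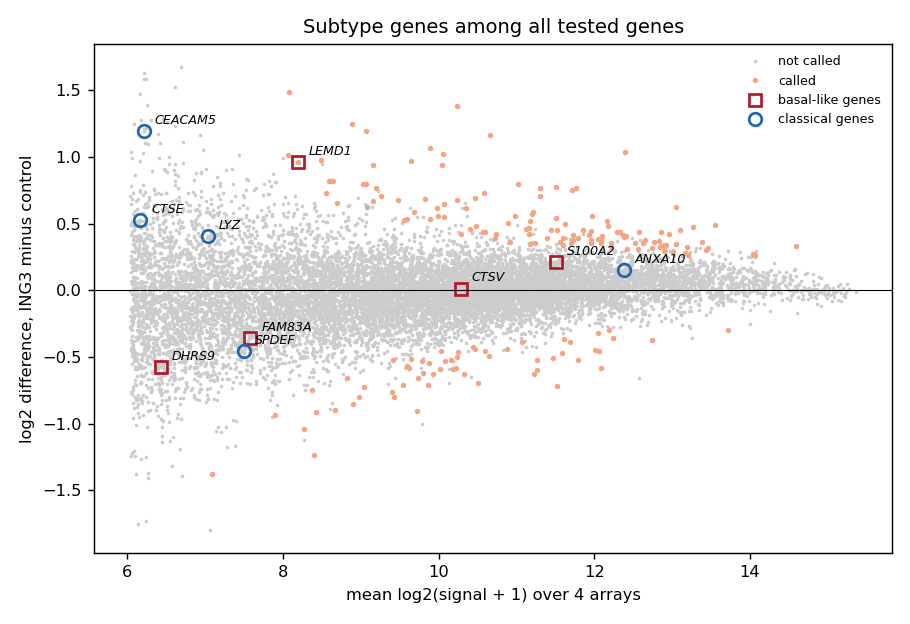
Log2 difference (ING3 minus control) against mean log2(signal + 1) over the 4 arrays for 12190 tested genes, with called genes in orange, basal-like genes as squares and classical genes as circles. The spread is widest at low signal, where 6 of the 10 subtype genes lie, and LEMD1 stands among called genes at 0.96.

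By subtype, the 5 basal-like genes had 1 called higher by limma, against 1.03% of all tested genes. Their median log2 difference was 0.013, with a range of -0.57 to 0.96. The 5 classical genes had 0 called by limma and a median of 0.41, with a range of -0.45 to 1.19. At an unadjusted limma p under 0.05 each subtype had 2 genes, LEMD1 and S100A2 or CEACAM5 and ANXA10, all higher. Such a p with a higher signal was seen for 9.54% of all tested genes. Over all tested genes the median was -0.0074, and 48.3% had a higher mean in ING3 cells, against 3 of 5 basal-like and 4 of 5 classical genes. Of those 4, CEACAM5 and CTSE were tested because of their higher ING3 values. Each subtype had genes with higher and genes with lower means.

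The wider subtype signatures were mostly dim in these cells. Of 20 other basal-like genes 14 had a probe set of their own and 5 were tested. UCA1, a long noncoding RNA, rose to 7780 and 7692 in ING3 cells, against 3585 and 3949 in control cells (log2 difference 1.04, SE 0.066, limma adjusted p = 0.00028), and was called under 11 of the 12 alternatives, the exception being the variance model without an intensity trend. Without control array a the call of UCA1 was only narrowly past the threshold. Its log2 difference was 0.97 without control array a and 1.11 without control array b. The share called higher over all tested genes was 1.03%. The 4 other tested genes, KRT15, SERPINB3, KRT7 and SLC2A1, had differences between -0.29 and 0.12 and were not called. Of 20 other classical genes 18 had a probe set of their own and 0 reached the limit of tested genes, with summed signals of 563 and 621 in ING3 cells against 785 and 468 in control cells. TFF2, a gastric trefoil peptide, had 10.4 and 11.7 in ING3 cells against 33.9 and 68.5 in control cells, and CDH17, the liver-intestine cadherin, had 78.9 and 101 against 66.1 and 26.5. They were named after their values were seen, and neither was tested.

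Of 13 transcription factors that set endodermal and epithelial identity 10 had a probe set of their own and 6 were tested. By limma 0 of the tested ones were called (1 higher at an unadjusted p under 0.05). ELF3, an epithelial ETS factor related to SPDEF, had signals of 341 and 302 in ING3 cells, against 209 and 199 in control cells. Its groups did not overlap, with a log2 difference of 0.65 (SE 0.18, adjusted p = 0.10). EHF, another epithelial ETS factor, had 10881 and 11954 in ING3 cells against 10610 and 10508 in control cells (difference 0.11, SE 0.061), and GATA4, an endodermal zinc finger factor, had 483 and 452 against 404 and 382 (difference 0.25, SE 0.13). The other 3 tested had lower means, with differences of -0.083 for GATA6 (SE 0.33), -0.23 for FOXA1 (SE 0.25) and -0.26 for KLF5 (SE 0.37). The median of the 6 was 0.014. Of 12 genes listed for squamous and basal differentiation 10 had a probe set of their own, and TP63 and PTHLH had none. The 1 tested was GLI2, a transcription factor, with a difference of -0.27 (SE 0.26). The keratin genes KRT5 and KRT14 were under the limit.

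**Figure D4:**
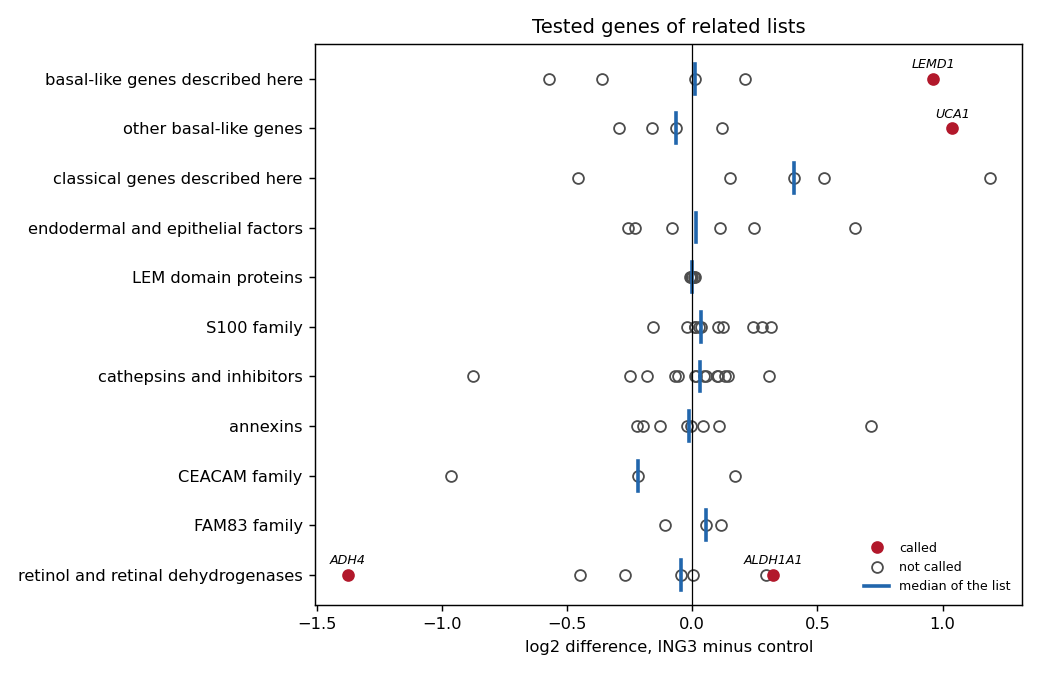
Log2 difference (ING3 minus control) of the tested genes in each related list, with called genes filled and named and the median of each list as a bar. LEMD1 (0.96), UCA1 (1.04), ALDH1A1 (0.32) and ADH4 (-1.38) are the called genes of the lists drawn, which leave out the lists of cell markers. The 5 tested LEM domain proteins lie between -0.0090 and 0.010, and intervals are not drawn.

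Keratin genes among the line's identity markers were higher in ING3 cells as well, and their part in the subtype genes was not tested. The share called higher over all tested genes was 1.03%. KRT19 rose to 5565 and 5374 in ING3 cells, against 3704 and 3929 in control cells (log2 difference 0.52, SE 0.063, limma adjusted p = 0.0078), and KRT8 rose 1.25-fold on an _x_at probe set (adjusted p = 0.033). Without control array a or b, neither was called (adjusted p of 0.19 and 0.13 for KRT19, and 0.33 and 0.24 for KRT8). KRT19 was called under 9 of the 12 alternatives and KRT8 under 5, with adjusted p for KRT8 of 0.090 with no filter on dim genes, 0.055 and 0.066 after quantile and cyclic loess normalization, 0.058 with every probe set tested and 0.30 without an intensity trend. KRT18 had a difference of 0.13 (SE 0.062) and was not called. Among markers of other cells, the 3 measured acinar genes summed to 93.8 and 64.9 in ING3 cells and 49.5 and 82.7 in control cells. The fibroblast list summed to 4096 and 4344 in ING3 cells and 5065 and 4910 in control cells, nearly all of it COL1A2, which was not called (difference -0.25, adjusted p = 0.091). The 3 endothelial genes summed to 456 and 370 in ING3 cells and 467 and 412 in control cells. Log2 differences were -0.45 for COL1A1, -0.13 for DCN, -0.025 for CDH5 and -0.22 for PECAM1, and none of these was called. No marker in these lists was at 0, and their part in the subtype genes was not tested.

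**Figure D5:**
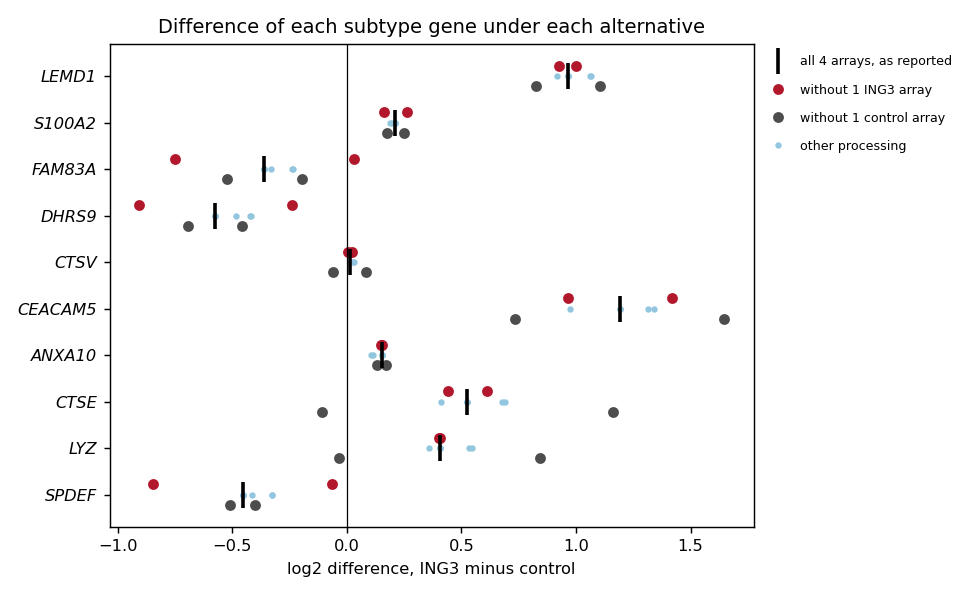
Log2 difference (ING3 minus control) of each subtype gene with all 4 arrays (black bar), with 1 ING3 array left out (red), with 1 control array left out (grey) and under other processing (blue). LEMD1 stays between 0.82 and 1.10, S100A2 and ANXA10 stay above 0, and FAM83A, CTSV, CTSE and LYZ reach both sides of 0 when 1 array is left out.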

How the data were processed

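Transcript levels were measured on 4 arrays, 2 of ING3 cells and 2 of control cells, grouped by their titles. Per the submitters' processing notes, the deposited signal intensity values were made with Affymetrix Expression Console and MAS5, with the versions not given in the sources used here. Under MAS5, mismatch signal is subtracted and 1 scaling factor is applied per array, which leaves dim probe sets noisy. Detection calls were not used here. Precision is limited by the number of arrays.

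Of 54675 probe sets, 62 controls were left out and 41097 had 1 gene symbol in GEO's platform annotation of 2016; 1801 had several and 11777 were unnamed here. Symbols were checked by gene ID against a RefSeq table of GRCh38.p14, which changed 0 of them. For each gene the brightest probe set by mean log2(signal + 1) was taken; the pseudocount of 1 understates changes of dim genes. The comparison used limma 3.58.1 (R 4.3.3), fitting lmFit and then eBayes with its trend option, with no further normalization or covariates; the residual degrees of freedom were 2, and 7.35 more came from the other genes. The test was also run on data simulated from its own fitted variance model. Such data meet the model's assumptions, so that run says nothing about differences between independent cultures. Alternatives, 12 in all, changed the pseudocount, the filter, the variance model, the normalization, the unit tested, the arrays and the block.

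RefSeq promoter windows were found for 8 of the 10 genes by symbol and searched for the motif letters on both strands. The genes and lists were chosen with earlier results of these data known, so no count over them is independent support. Named genes were all 10 subtype genes, the called genes of each list or, with none called, up to 3 of its brightest tested genes, and the 3 nearest patterns of each called subtype gene. KRT15, SERPINB3, KRT7, SLC2A1, RDH10, CTSD, CTSL, PGC, ANXA9, CEACAM6, KRT18, VIM, TFF2, CDH17 and genes listed as under the limit were named after their values were seen. So were GATA6, FOXA1, KLF5, ANXA4, ANXA6 and RDH13.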

Additional observations from a re-analysis of the deposited data

How the results depend on the processing

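The count of called genes, 183 over the whole table, was 54 with no filter on dim genes, 0 by limma without an intensity trend (1686 at an unadjusted p under 0.05), 115 after quantile normalization, 108 with every probe set tested and 442 with the array letter as a replicate block. It ranged from 2 to 305 with 1 array left out: 2 without control array a, 2 without control array b, 305 without ING3 array a and 181 without ING3 array b. The letters are not stated to pair the arrays: the deviations of same-letter arrays correlated at r = 0.029 across genes, and the block called LEMD1 as well (adjusted p = 0.0090). The count of subtype genes called higher, 1, was 0 with no filter, without an intensity trend and with every probe set tested, and 0 in each of the 4 fits with 1 array left out (2 to 4 subtype genes then had an unadjusted p under 0.05). The count called lower was 0 throughout. Differences turned in sign when 1 array was left out for FAM83A (-0.75 to 0.031), CTSE (-0.11 to 1.16), CTSV (-0.059 to 0.085) and LYZ (-0.033 to 0.84), 4 of 117 member values under alternatives. With 1 array in a group, that array was assumed to vary like the others. CTSE, CEACAM5 and DHRS9 were not tested at the 60th percentile filter.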
